A study of Mus musculus with 2 samples.

Results

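Immunoglobulin transcripts were followed through 9 genes of the 19465 in the files: the heavy chain constant genes *Ighm*, *Igha*, *Ighg3*, *Ighg1*, *Ighg2b* and *Ighg2c*, the kappa light chain constant gene *Igkc*, and the plasma cell genes *Jchain* and *Mzb1*. The genes were chosen by name, and all 9 were found by symbol in both sections. The set was proposed because *Ighg3* had stood out in the bone region of the Loaded section in earlier work on these data, so every difference between the Loaded and Control bone regions below is a description.

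Antibodies are built from heavy and light chains. A B cell first makes IgM and IgD, and after class switching it joins the same variable region to a constant gene further along the heavy chain locus, which yields IgG or IgA. Plasma cells, the terminal state of this lineage, secrete antibody in bulk, and the bone marrow is known as the home of long-lived ones. J chain joins IgA into dimers and IgM into pentamers, and Mzb1 is a chaperone of the endoplasmic reticulum that assists immunoglobulin assembly and secretion.

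In the GENCODE M21 annotation of the mouse genome (GRCm38) the 6 heavy chain genes lie on the minus strand of chromosome 12 in the order *Ighm* (113418558 to 113422730), *Ighg3* (113356224 to 113361232), *Ighg1* (113325240 to 113330523), *Ighg2b* (113302965 to 113307933), *Ighg2c* (113285325 to 113288932) and *Igha* (113254830 to 113260236). *Ighg3* is thus the IgG gene nearest to *Ighm*. *Igkc* lies on the plus strand of chromosome 6 (70726435 to 70726966) and *Jchain* on the minus strand of chromosome 5 (88519809 to 88527891).

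The IgG subclasses differ most visibly in the hinge, the flexible link between the arms and the stem of the antibody, which exon 2 of each gene encodes. The hinge exons are shown because the results turn on telling *Ighg3* from the other IgG genes. Each is printed 5′ to 3′ on the coding (minus) strand, with its in-frame cysteine codons, the residues that bridge the heavy chains, in capitals.
Ighg3, chr12:113360529-113360576: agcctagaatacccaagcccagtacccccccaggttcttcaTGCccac
Ighg1, chr12:113329844-113329882: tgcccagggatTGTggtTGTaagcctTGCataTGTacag
Ighg2b, chr12:113307261-113307326: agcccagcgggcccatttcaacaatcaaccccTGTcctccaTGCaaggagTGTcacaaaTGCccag
Ighg2c, chr12:113288263-113288325: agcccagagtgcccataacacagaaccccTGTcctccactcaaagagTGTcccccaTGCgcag
The *Ighg3* hinge exon holds 48 bases and 1 cysteine codon, against 4 in *Ighg1*, 4 in *Ighg2b* and 3 in *Ighg2c*. Over the whole coding sequence of the secreted form, *Ighg3* shared 73.1% of aligned bases with *Ighg1*, 74.9% with *Ighg2b* and 75.5% with *Ighg2c*. *Ighg2b* and *Ighg2c* were closer to each other, at 85.6%. The sequences of the assay's probes were not used here, so how well each probe separates these genes was not tested.

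The sections came from femurs of female BCR reporter mice, which carry eGFP at the *Ibsp* locus and mCherry at the *Acp5* locus. Both mice received a 0.68 mm defect of the femoral shaft at 12 weeks of age, held by an external fixator, and both had bridged the defect 3 weeks later. From week 3 to week 5 the Loaded mouse received cyclic mechanical loading 3 times per week and the Control mouse received sham loading, and both were killed at 17 weeks of age. With 1 section per group, the difference between mice and the effect of loading cannot be told apart, no test was made, and every interval in parentheses is a 95% interval for counting error only.

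Transcripts were counted as unique molecular identifiers (UMIs) in Visium spots, small regions of tissue that each hold several cells and lie 100 μm apart. After spots with few UMIs or genes were removed, 1898 Control and 1431 Loaded spots were left. The study's published barcodes placed 131 Control and 146 Loaded spots on bone, with 557259 and 409020 UMIs, and the other 1767 and 1285 spots, which held muscle, marrow and other tissue, carried 8426953 and 4499787 UMIs. The regions differed in makeup as well: a list of 22 muscle genes took 15.9% of the UMIs of Control bone and 8.42% of Loaded bone, and 29.2% and 18.6% in the other spots. In bone, 8 of 10 granulocyte genes and 7 of 8 osteoblast genes were above a log2 ratio of 1 in Loaded over Control, against 10.6% of all genes. The part these differences play in the immunoglobulin values was not tested, and fewer cells of a type cannot be told apart from less RNA per cell.

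*Ighm*, the heavy chain of IgM, was low in Control bone and was spread widely elsewhere. It gave 28 UMIs (18.6 to 40.5) in Control bone, 932 (873 to 994) in the other Control spots, 70 (54.6 to 88.4) in Loaded bone and 678 (628 to 731) in the other Loaded spots. Per 100000 UMIs of the region these are 5.02, 11.1, 17.1 and 15.1. Control bone thus had the lowest level of the 4 regions, and the 2 Loaded regions had similar levels, with overlapping intervals.

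*Igha*, the heavy chain of IgA, showed the reverse order in the Control section. The counts were 219 UMIs (191 to 250) in Control bone, 730 (678 to 785) in the other Control spots, 106 (86.8 to 128) in Loaded bone and 739 (687 to 794) in the other Loaded spots, or 39.3, 8.66, 25.9 and 16.4 per 100000 UMIs. Its level was higher in bone than in the sum of the other spots in both sections. In Control, 107 of the 219 bone UMIs came from a single spot described below.

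*Ighg3*, the heavy chain of the IgG3 subclass, was counted in bone almost solely in the Loaded section. It had 1 UMI (0.0253 to 5.57) in Control bone, 127 (106 to 151) in the other Control spots, 54 (40.6 to 70.5) in Loaded bone and 338 (303 to 376) in the other Loaded spots. Per 100000 UMIs its levels were 0.179, 1.51, 13.2 and 7.51. The gene was therefore present in the Control section, outside the bone spots. The 54 UMIs of Loaded bone came from 30 of 146 spots and no spot held more than 4, so no single spot carried them.

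The remaining IgG genes were scarce. *Ighg2c*, the IgG2c heavy chain of mouse strains that lack IgG2a, had 1 UMI in Control bone, 12 in the other Control spots, 5 in Loaded bone and 28 in the other Loaded spots. *Ighg2b* had 1, 7, 2 and 18 UMIs in the same order, and *Ighg1* had 0, 4, 1 and 4. *Ighg1* in Control bone was thus at 0 UMIs (0 to 3.69). Outside bone, *Ighg2b* and *Ighg2c* each had more UMIs in the Loaded section than in Control.

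*Igkc*, the constant part of the kappa light chain, gave the same raw count in both bone regions, 168 UMIs (144 to 195) each. In the other spots it had 480 UMIs (438 to 525) in Control and 1563 (1486 to 1642) in Loaded. As levels per 100000 UMIs these are 30.1 in Control bone, 41.1 in Loaded bone, 5.70 in the other Control spots and 34.7 in the other Loaded spots. In these levels the larger gap between the sections lay outside bone. Of the 168 UMIs of Control bone, 101 came from the same spot as the *Igha* peak. Without the richest spot of each bone region, the *Igkc* levels in bone were 12.2 in Control and 37.2 in Loaded.

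*Jchain* and *Mzb1*, the genes of antibody assembly and secretion, were counted rarely. *Jchain* had 15 UMIs (8.40 to 24.7) in Control bone, 27 (17.8 to 39.3) in the other Control spots, 10 (4.80 to 18.4) in Loaded bone and 51 (38.0 to 67.1) in the other Loaded spots. *Mzb1* had 7, 52, 9 and 50 UMIs in that order. Per 100000 UMIs the *Mzb1* intervals of the 2 bone regions overlapped in part, at 0.505 to 2.59 in Control and 1.01 to 4.18 in Loaded.

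**Figure D1:**
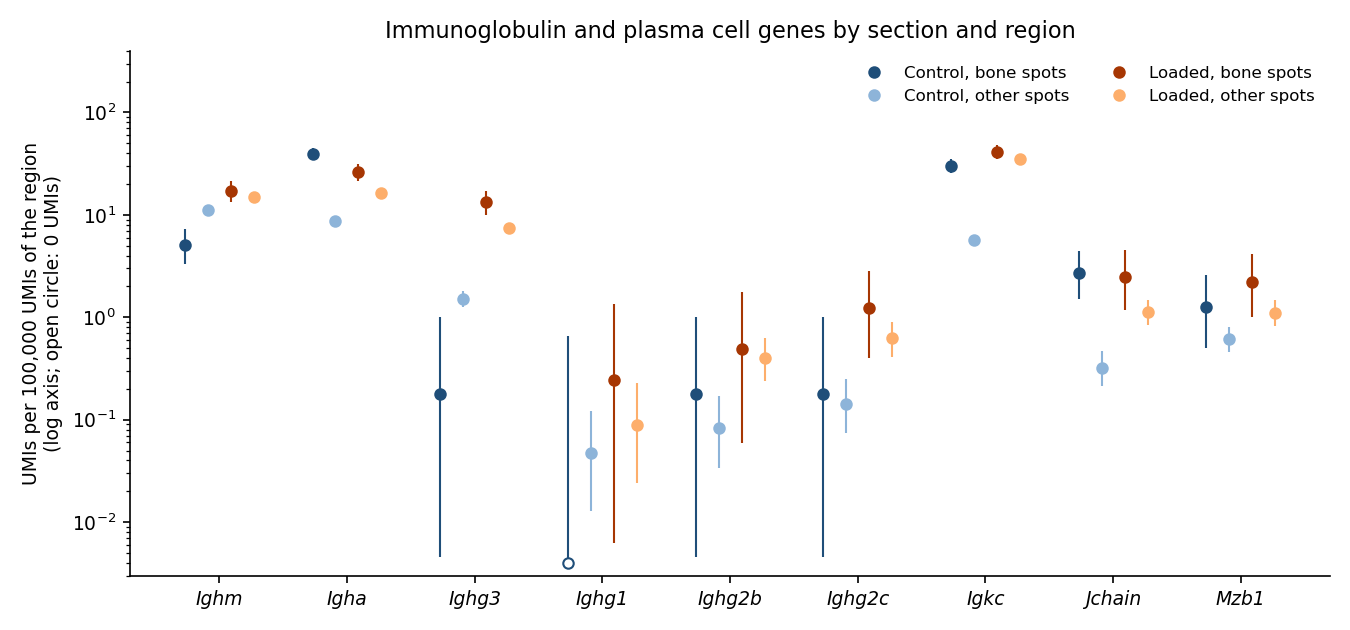
Level of each gene in UMIs per 100000 UMIs of the region (log axis) in Control and Loaded bone spots and other spots, with 95% Poisson intervals as lines and an open circle where the count was 0. *Ighg3* is at 0.179 in Control bone and 13.2 in Loaded bone, while *Igha* is highest in Control bone, at 39.3.

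Between the bone regions, the summed counts were divided by summed scran size factors and compared as log2 ratios of Loaded over Control. Of the 9 members, 6 had at least 10 UMIs over both regions, and 2 of these, *Ighg3* and *Ighm*, were above a log2 ratio of 1, against a background of 10.6% of 10003 genes. None was below -1, where 9.81% of genes lay. The ratio was 6.08 (3.54 to 11.4) for *Ighg3*, which rests on 1 Control UMI, and 1.65 (1.00 to 2.34) for *Ighm*. *Igha* stood at -0.72 (-1.07 to -0.38), *Igkc* at 0.33 (0.01 to 0.64), *Jchain* at -0.26 (-1.57 to 0.99) and *Mzb1* at 0.69 (-0.90 to 2.35). The median of the 6 was 0.51, beside 0.02 over all genes. The members thus differed among themselves, with *Ighm* and *Ighg3* higher in Loaded bone. The direction of the *Igha* ratio changed when 1 block was left out, as given with the blocks below. In a check added after the data were seen, the richest spot of each bone region was left out. By library totals *Igkc* was then at 1.61 (1.18 to 2.04) and *Igha* at -0.33 (-0.79 to 0.12). With all spots kept, library totals gave 0.45 and -0.60.

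Outside bone more members had a log2 ratio above 1. Of 8 members with enough UMIs, 5 were above a log2 ratio of 1, against 6.32% of 16326 genes, with a median of 1.60 beside 0.04. These were *Igkc* at 2.23 (2.08 to 2.38), *Ighg3* at 1.94 (1.64 to 2.25), *Ighg2b* at 1.89 (0.56 to 3.39), *Ighg2c* at 1.75 (0.73 to 2.86) and *Jchain* at 1.45 (0.75 to 2.18). None was below -1, where 5.16% of genes lay. *Igha* reached 0.55 (0.40 to 0.70) and *Mzb1* 0.47 (-0.12 to 1.06). *Ighm* was at 0.07 (-0.07 to 0.21) here. By library totals the median of all genes moved up by 0.38, and *Ighm* then stood at 0.45, close to that shift.

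Within the Control section, bone carried more *Jchain* (log2 ratio of bone over other spots 2.57, 1.55 to 3.53), *Igkc* (1.90, 1.64 to 2.16) and *Igha* (1.68, 1.45 to 1.90), and less *Ighm* (-1.64, -2.24 to -1.10) and *Ighg3* (-3.57, -8.89 to -1.07). Without the richest spot of each region, *Jchain* was at 1.61 (0.15 to 2.86), *Igkc* at 0.62 (0.23 to 0.99) and *Igha* at 0.89 (0.59 to 1.18). In the full data 3 of 7 members were above 1, against 13.3% of 14683 genes, and 2 were below -1, against 8.71%. Muscle spots, described below, held 6883309 of the 8426953 UMIs of the other Control spots. Per 100000 UMIs the Control cavity, also described below, was above bone. It had 66.6 *Igha* against 39.3, 37.3 *Igkc* against 30.1 and 3.59 *Jchain* against 2.69, with overlapping intervals for *Igkc* and *Jchain*. In cavity spots with a muscle share below 10%, *Igha* was at 43.3. Within the Loaded section 0 of 8 members were above 1 or below -1, against 11.4% and 7.76% of 13849 genes. *Ighg3* was at 0.61 (0.17 to 1.03), *Igha* at 0.46 (0.15 to 0.75), or -0.11 (-0.50 to 0.25) without the richest spots, *Igkc* at 0.04 (-0.20 to 0.27) and *Ighm* at -0.02 (-0.39 to 0.34). The largest ratios were those of *Jchain* at 0.91 (-0.23 to 1.90), *Mzb1* at 0.79 (-0.42 to 1.82) and *Ighg2c* at 0.77 (-0.96 to 2.17). Muscle spots held 2979635 of the 4499787 UMIs of the other Loaded spots. Per 100000 UMIs *Ighg3* was at 13.2 in Loaded bone, 26.4 in the cavity, 14.8 in the rest and 1.85 in muscle. *Igha* was at 25.9, 59.8, 29.8 and 4.56 in that order. For both genes Loaded bone was thus below the cavity, and its interval overlapped that of the rest. Where muscle genes took under 5% of a spot's UMIs, which left 25 bone spots, the summed members were at -2.10, *Ighg3* at -0.79 (-1.75 to 0.05) and *Igha* at -4.22 (-6.51 to -2.66). By library totals these bone over other ratios of all genes moved up by a median of 0.50 in Control and 0.20 in Loaded.

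**Figure D2:**
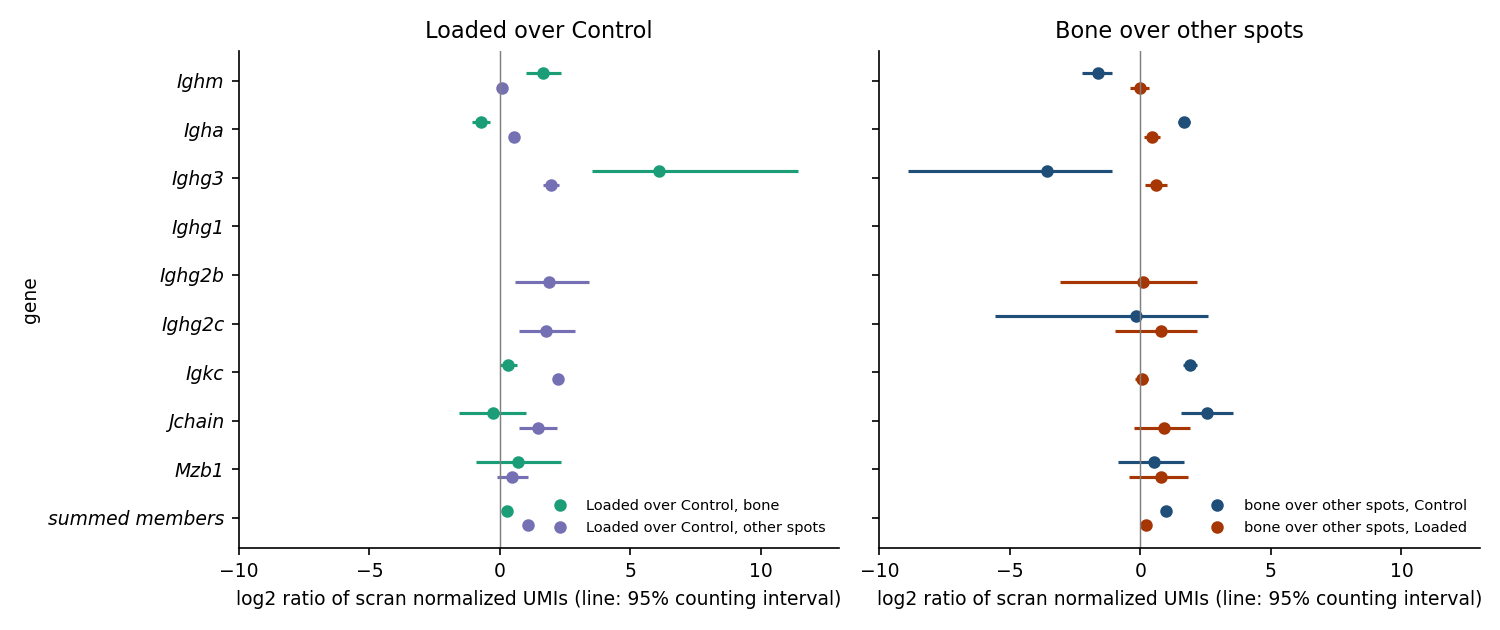
Log2 ratios of scran normalized UMIs with 95% counting intervals, as Loaded over Control in bone and in other spots (left) and as bone over other spots in each section (right), with no point for genes under 10 UMIs. *Ighg3* is at 6.08 in bone and 1.94 in the other spots, and *Igkc* at 0.33 and 2.23.

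To show the variation inside a bone region, each was divided into 4 blocks by bone side and along the shaft. *Ighg3* had 1, 0, 0 and 0 UMIs in the Control blocks and 15, 18, 10 and 11 in the Loaded blocks. Per 100000 UMIs its levels in these Loaded blocks were 8.29, 34.7, 24.0 and 8.18. The level of *Ighm* lay between 2.40 and 7.56 UMIs per 100000 in the Control blocks, and between 10.5 and 26.0 in the Loaded blocks. For these members every Loaded block was above every Control block, in these levels and in UMIs divided by summed scran size factors. By size factors this held for 3.24% of 10003 genes. On that scale the *Ighm* gap was small. The lowest Loaded block was at 0.335, from 19 UMIs, and the highest Control block at 0.325, from 17. In UMIs per 100000, *Igha* spanned 15.6 to 73.9 over Control blocks and 7.18 to 55.8 over Loaded blocks. *Igkc* spanned 8.01 to 64.7 and 23.8 to 60.2, so for both the sections overlapped. In each section a single block was the highest for both genes. Leaving out the highest Control block turned the *Igha* ratio from -0.72 to 0.24 (-0.22 to 0.71) and moved that of *Igkc* from 0.33 to 1.88 (1.34 to 2.47). Without the highest Loaded block *Igha* was at -1.94 (-2.53 to -1.39) and *Igkc* at -0.07 (-0.46 to 0.31), and without the first Control block, on the other bone side, *Igkc* was at -0.11 (-0.43 to 0.22). *Igha* was at -0.01 (-0.38 to 0.34) without the first Loaded block.

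**Figure D3:**
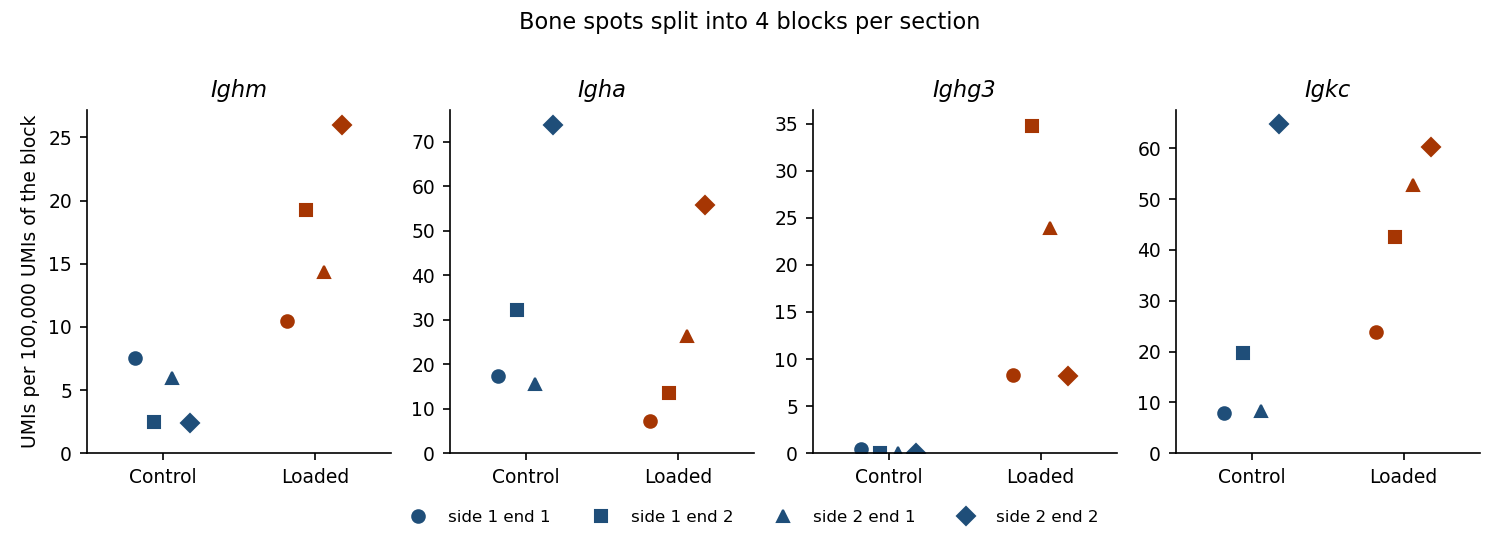
UMIs per 100000 UMIs in each of the 4 blocks of the Control and Loaded bone regions for *Ighm*, *Igha*, *Ighg3* and *Igkc*, with 1 symbol for each block. The Loaded blocks lie above all Control blocks for *Ighm* and *Ighg3*, and a single Control block at 73.9 sets the *Igha* range.

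The makeup of the heavy chains changed from region to region. Because probes of different genes may capture unequally, shares are compared between regions and not between chains. In Control bone IgA took 87.6% (82.9 to 91.4) of 250 heavy chain UMIs, IgM 11.2% (7.57 to 15.8) and the 4 IgG genes 1.2% (0.248 to 3.47). In Loaded bone IgA took 44.5% (38.1 to 51.1) of 238, IgM 29.4% (23.7 to 35.6) and IgG 26.1% (20.6 to 32.1). The IgA share was thus higher in Control bone, and the IgM and IgG shares were higher in Loaded bone. Without the richest spot of each region, IgA took 78.3% of 143 heavy chain UMIs in Control bone and 33.7% of 196 in Loaded bone, and the heavy chain level was 26.1 and 48.3 UMIs per 100000.

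Pooled over the other spots, IgA took 40.3% (38.0 to 42.6) of 1812 heavy chain UMIs in Control. In Loaded it took 40.9% (38.7 to 43.3) of 1805. The IgA share was not alike within the classes of these spots, which are described below. It was 76.0% in Control and 45.5% in Loaded cavity spots, 52.8% and 44.6% in the rest, and 19.8% and 29.2% in muscle spots. In the pooled spots IgG took 8.28% (7.05 to 9.64) in Control and 21.5% (19.6 to 23.5) in Loaded. IgM took 51.4% (49.1 to 53.8) and 37.6% (35.3 to 39.8). The *Ighg3* share of IgG counts was similar in the bone and pooled other spots with at least 62 IgG UMIs. It was 84.7% (77.9 to 90.0) of 150 in the other Control spots. In Loaded it was 87.1% (76.1 to 94.3) of 62 in bone and 87.1% (83.4 to 90.3) of 388 in the other spots. The *Ighg3* share therefore differed by less than its counting error between these regions. By class it varied more. It was 90.8% (83.8 to 95.5) of 109 in the Control rest and 70.6% (52.5 to 84.9) of 34 in Control muscle. In Loaded it was 92.3% (86.7 to 96.1) of 143 in the cavity, 83.9% (77.7 to 88.9) of 180 in the rest and 84.6% (73.5 to 92.4) of 65 in muscle. Within each section these intervals overlapped. In Control bone, with 3 IgG UMIs, the share could not be resolved at this depth.

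**Figure D4:**
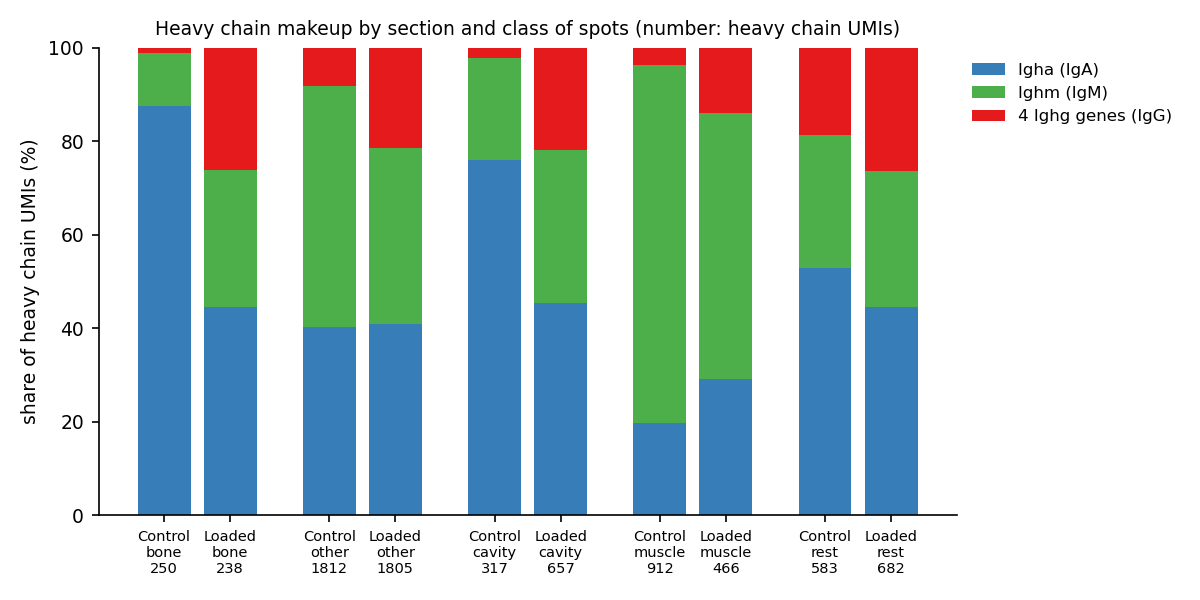
Share (%) of heavy chain UMIs from *Igha*, *Ighm* and the 4 *Ighg* genes in each section for bone spots, other spots and the 3 classes of other spots, with the number of heavy chain UMIs under each bar. IgG takes 1.2% in Control bone and 26.1% in Loaded bone, and IgM takes 76.4% in Control muscle spots.

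The other spots were split into cavity spots, which lie within the outer edges of the bone sides, muscle spots, in which the muscle list takes at least 10% of UMIs, and the rest. Cavity spots numbered 172 in Control and 179 in Loaded, and the erythroid list took 13.6% and 10.9% of their UMIs, against 1.69% and 3.22% of all other spots. All members together were densest there, at 132 UMIs per 100000 (120.5 to 144) in Control and 262 (248 to 276) in Loaded, and most sparse in muscle, at 15.5 (14.6 to 16.5) and 25.8 (24.0 to 27.7). Bone lay between, at 79.0 (71.8 to 86.7) and 104 (94.3 to 114).

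Cavity spots showed like differences for *Ighg3* and *Ighm*. *Ighg3* had 4 UMIs in the Control cavity, all in different spots, and 132 in the Loaded cavity, in 58 of 179 spots, a log2 ratio by library totals of 4.58 (3.19 to 6.48). *Igkc* was at 1.70 (1.43 to 1.98) and *Ighm* at 1.17 (0.78 to 1.59), while *Igha* was at -0.15 (-0.40 to 0.10). IgA took 76.0% (70.9 to 80.6) of the heavy chain UMIs of the Control cavity and 45.5% (41.7 to 49.4) of the Loaded cavity, and IgG 2.21% (0.892 to 4.50) and 21.8% (18.7 to 25.1). Some cavity spots were rich in muscle transcripts, among them 2 Control spots with 97 of its 241 *Igha* UMIs. In the 150 Control and 174 Loaded cavity spots with a muscle share below 10%, *Igha* was at 0.46 (0.16 to 0.77), *Ighg3* at 5.31 (3.43 to 8.37) and *Ighm* at 1.17 (0.74 to 1.61), and IgA took 67.4% and 45.2% of heavy chain UMIs. Most Control *Ighg3* UMIs lay elsewhere: 99 of the 127 outside bone were in the rest class, where the Loaded count was 151 and the log2 ratio 0.82 (0.45 to 1.20). The IgG share of that class was 18.7% (15.6 to 22.1) in Control and 26.4% (23.1 to 29.9) in Loaded.

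*Ighm* was also densest in the cavity, at 19.1 UMIs per 100000 in Control and 43.0 in Loaded. Muscle spots, which hold most UMIs of the section, held 697 of the 932 *Ighm* UMIs found outside Control bone, and IgM took 76.4% (73.5 to 79.1) of heavy chain UMIs there and 56.9% (52.2 to 61.4) in Loaded muscle. The *Ighm* levels in muscle were 10.1 (9.39 to 10.9) in Control and 8.89 (7.86 to 10.0) in Loaded, a log2 ratio of -0.19 (-0.40 to 0.02). In the same muscle spots *Igkc* had 1.92 (1.60 to 2.27) in Control and 9.50 (8.42 to 10.7) in Loaded. Summed over muscle spots, there were 0.145 (0.120 to 0.174) *Igkc* UMIs per heavy chain UMI in Control and 0.607 (0.522 to 0.705) in Loaded.

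Distance to bone was followed through the nearest bone spot. The summed members had 58.9 UMIs per 100000 (52.5 to 65.8) in Control spots that touch bone and 24.4 (23.1 to 25.7) in those more than 6 spots away. In Loaded these levels were 139 (129 to 150) and 51.9 (49.0 to 55.0). *Igha* had 34.8 beside bone and 5.87 far from it in Control, and 32.8 and 10.6 in Loaded. The Control value beside bone rests in part on touching spots with 73 and 24 of its 185 *Igha* UMIs. Their muscle shares were 27.3% and 32.6%. *Ighm* had 7.90 (5.69 to 10.7) touching bone and 11.6 (10.7 to 12.5) far from it in Control, and 27.9 (23.4 to 33.0) and 10.2 (8.98 to 11.6) in Loaded. The muscle list took 15.8% of the UMIs beside bone and 30.9% far from it in Control, and 9.67% and 21.8% in Loaded, and its part in these levels was not tested.

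**Figure D5:**
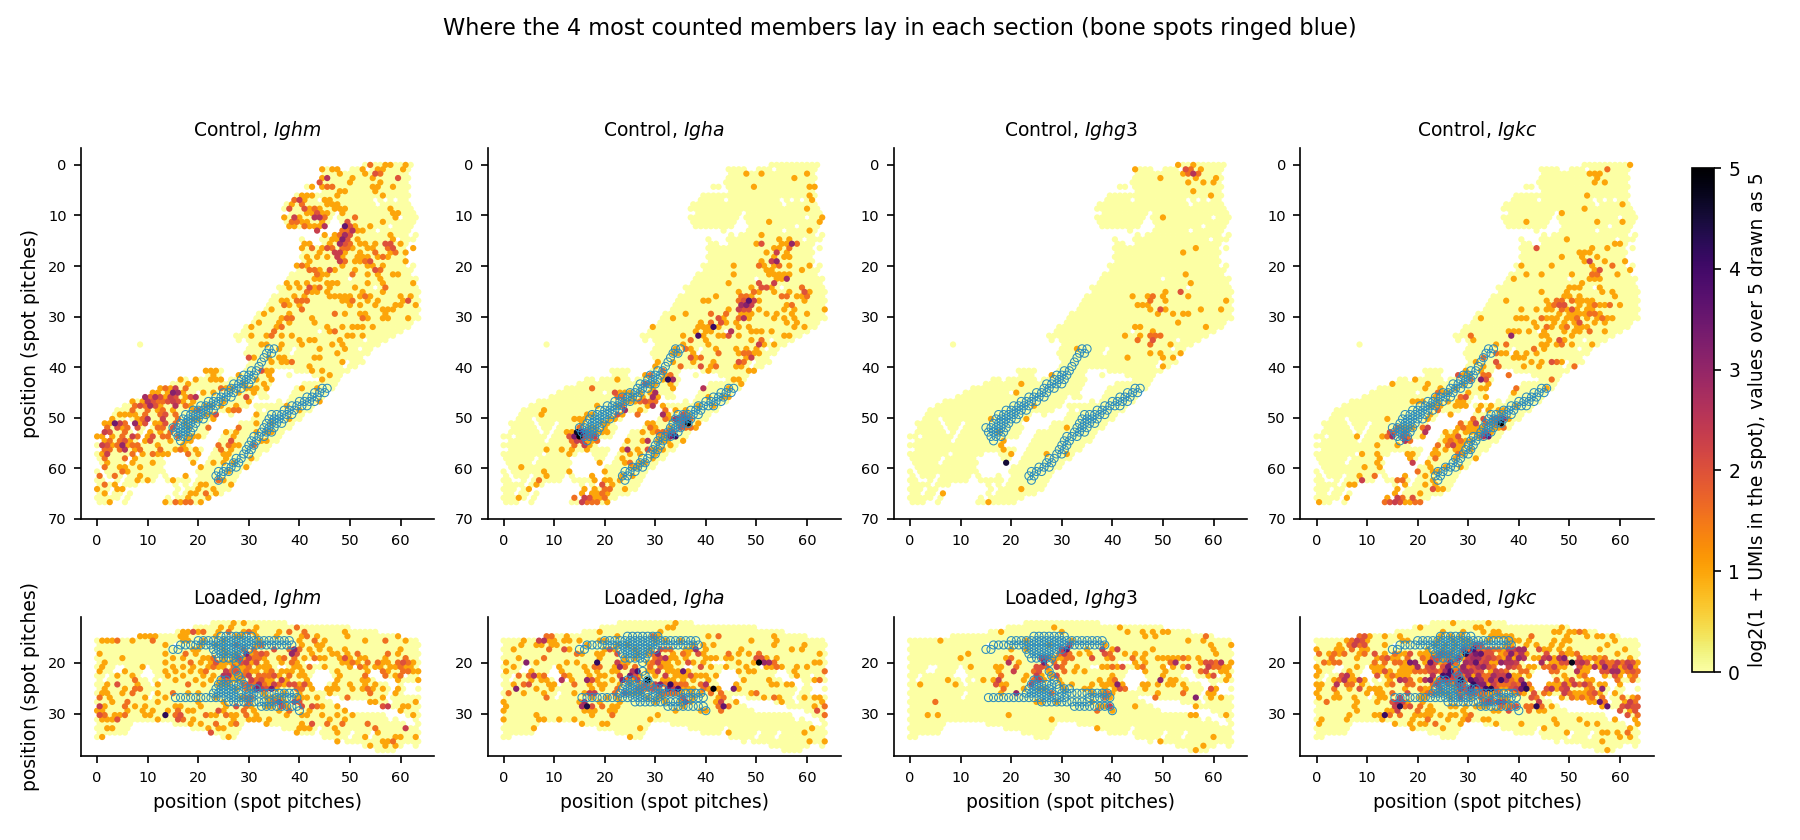
Maps of the Control (top) and Loaded (bottom) sections with each spot colored by log2(1 + UMIs) of *Ighm*, *Igha*, *Ighg3* or *Igkc*, bone spots ringed in blue and both axes in spot pitches of 100 μm. *Igkc* was counted in most cavity spots of the Loaded section, 143 of 179, and *Ighg3* in 4 of 172 cavity spots of the Control section.

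Over the whole section, 97.1% of Control spots with a member touched another such spot, close to the 95.6% of all spots that touched one. In Loaded these shares were 98.3% and 97.7%. Moran's I, a measure of likeness between touching spots in which 0 means none, was 0.327 for the summed members in Control and 0.512 in Loaded, beside medians of 0.257 and 0.281 for genes of like count. *Igkc* had 0.253 and 0.434 (like-count medians 0.0662 and 0.177), *Igha* 0.302 and 0.234 (0.0983 and 0.0912), and *Ighg3* 0.155 and 0.249 (0.0168 and 0.0461). These genes were above others of like count. *Ighm* in Control was not, at 0.102 beside 0.0990, and had 0.169 beside 0.0811 in Loaded. *Jchain* had 0.0134 beside 0.00989 in Loaded and was counted too rarely in Control, and *Mzb1* had 0.00637 beside 0.0109 in Control and 0.0536 beside 0.00978 in Loaded. Among bone spots alone the summed members had 0.199 beside 0.277 in Control, below genes of like count, and 0.265 beside 0.101 in Loaded. Among the other spots they had 0.339 beside 0.241 and 0.525 beside 0.302. These values describe 1 section each, and spots are not independent.

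Part of the *Igha* and *Igkc* signal sat in a few spots. The 10 spots with most *Igha* held 31.6% of its 949 UMIs in Control and 26.3% of 845 in Loaded, and for *Igkc* these shares were 24.4% of 648 and 10.6% of 1731. For *Ighm* they were 7.81% of 960 and 10.4% of 748, and for the summed members 17.2% of 2811 and 11.3% of 3894. The highest spot of all, on Control bone, held 107 *Igha*, 101 *Igkc*, 8 *Jchain* and 2 *Mzb1* UMIs and no other heavy chain, out of 8882 UMIs, while its 6 touching spots held 28 member UMIs together. A second Control spot at 1 end of the bone region, classed as cavity, held 73 *Igha* UMIs but only 6 *Igkc*, and 3 of *Iglc3*, a lambda light chain gene with 41 UMIs in the whole Control section. Of its neighbors, 1 in the cavity and 1 on bone held 24 and 11 *Igha* UMIs with 3 and 2 *Igkc* and 3 and 2 *Iglc3*. Another, classed as muscle, held 9 *Igha*, 2 *Igkc*, 2 *Ighm* and 0 *Iglc3* UMIs. The peak spot and the named cavity and bone neighbors, 3 spots in all, thus held 8 of the 41 *Iglc3* UMIs. They also had muscle shares of 27.3% to 33.9%.

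Other heavy chains had peaks of their own. A Control spot outside bone held 22 *Ighg3* UMIs of 128 in the section with 4 *Igkc*, and its 2 touching spots held 1 member UMI. A Loaded spot in muscle held 18 *Ighm*, 16 *Igkc* and 2 *Jchain* UMIs with no *Igha*, and the highest Loaded spot, 12.5 spot pitches from bone, held 51 *Igha* and 26 *Igkc*. Among spots with at least 10 heavy chain UMIs, 13 of 15 in Control had at least 80% from a single chain, with 12 led by *Igha*, 2 by *Ighm* and 1 by *Ighg3*. In Loaded this held for 13 of 27, with 20 led by *Igha*, 4 by *Ighm* and 3 by *Ighg3*. Of the 27 Loaded spots 17 lay in the cavity, against 3 of the 15 Control spots.

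Light chain counts did not keep a fixed ratio to heavy chains between sections. With *Ighm* left out of the heavy chains, *Igkc* gave 0.588 UMIs per heavy chain UMI (0.533 to 0.649) in Control and 1.34 (1.24 to 1.44) in Loaded. The ratio was higher in Loaded in each class, with overlapping intervals in bone, at 0.757 (0.616 to 0.929) against 1 (0.803 to 1.25). It was 0.544 (0.438 to 0.674) against 1.37 (1.21 to 1.55) in the cavity. In muscle it was 0.614 (0.491 to 0.766) against 1.41 (1.17 to 1.70). With *Ighm* included, the bone ratios were alike, at 0.672 (0.549 to 0.820) in Control and 0.706 (0.576 to 0.864) in Loaded. This likeness depended on the richest spots. Without the richest spot of each bone region, Control had 67 *Igkc* UMIs beside 143 heavy chain UMIs (46.9%). Loaded then had 151 beside 196 (77.0%). The 4 lambda genes *Iglc1* to *Iglc4* together were 10.1% (8.02 to 12.6) of light chain UMIs in Control and 3.67% (2.85 to 4.65) in Loaded. Lambda counts were 73 of 8984212 UMIs in Control and 66 of 4908807 in Loaded. Per 100000 UMIs, *Igkc* had 7.21 in Control and 35.3 in Loaded. In the same order *Iglc1* had 0.211 and 0.469, *Iglc2* 0.0557 and 0.163, *Iglc3* 0.456 and 0.632, and *Iglc4* 0.0890 and 0.0815.

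Shares of spots with a UMI depend on depth, so every spot was thinned to 1000 UMIs and shallower spots were left out, 0 and 15 in bone and 256 and 61 in the other spots of Control and Loaded. A member UMI was then found in 34.4% (26.3 to 43.1) of 131 Control bone spots and 51.9% (43.0 to 60.7) of 131 Loaded bone spots, against 65.6% and 79.5% without thinning. Muscle, a tissue that should lack the members, had 19.1% (16.5 to 21.9) of 844 Control spots and 25.5% (22.2 to 28.9) of 664 Loaded spots, with median depths of 5056 and 3438.5 UMIs against 3478 and 2621 in bone. Cavity spots had 61.1% (53.2 to 68.5) and 84.2% (78.0 to 89.2).

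By gene, the share of thinned bone spots with *Ighm* was 5.34% (2.18 to 10.7) in Control, not above the 9.72% (7.80 to 11.9) of Control muscle, and 18.3% (12.1 to 26.0) in Loaded, beside 10.2% (8.04 to 12.8) in Loaded muscle. For *Ighg3* it was 0.763% (0.0193 to 4.18) in Control bone beside 1.07% in muscle, and 6.11% (2.67 to 11.7) in Loaded bone beside 3.01% (1.85 to 4.61). Neither gene in Control bone was thus above muscle. Because muscle itself holds *Ighm*, this cannot show that the bone counts are background. At this depth the *Ighg3* interval of Loaded bone overlapped that of Loaded muscle. The intervals were apart at 500 UMIs, at 6.85% (3.33 to 12.2) in Loaded bone and 1.70% (0.884 to 2.96) in Loaded muscle. Without thinning these shares were 20.5% (14.3 to 28.0) and 6.68% (4.95 to 8.78), and the levels 13.2 and 1.85 UMIs per 100000. Muscle was not free of the members. Without thinning, *Ighm* was counted in 381 of 1001 Control and 188 of 704 Loaded muscle spots, and a single Loaded muscle spot held 18 UMIs. *Igha* had 18.3% (12.1 to 26.0) in Control bone and 17.6% (11.5 to 25.2) in Loaded bone, beside 4.62% and 6.02% in muscle, so the number of bone spots with *Igha* was alike although its UMI sum was not. *Igkc* had 14.5% (8.96 to 21.7) and 30.5% (22.8 to 39.2), beside 3.79% and 11.4%.

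How often members shared a spot was set beside the product of their single shares. In Control, *Igha* and *Igkc* were both counted in 150 spots, 1.91 times the product of their shares, and in Loaded in 245, 1.43 times. *Ighg3* and *Igkc* shared 29 Control spots, 1.75 times the product, and 160 Loaded spots, 1.54 times. *Ighm* and *Igkc* were found together in 105 Control spots, 0.907 times the product, and in 288 Loaded spots, 1.30 times. IgM and kappa transcripts therefore shared spots above the product in Loaded but not in Control. Spots of a section share its depth and tissue, and these values are descriptions.

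Other genes linked to plasma cells were present, most of them sparse. All 12 of a list of secretory and plasma cell genes had UMIs in both bone regions, and most came from *Xbp1*, the regulator of the secretory program, *Txndc5*, a disulfide isomerase, and *Sdc1*, the surface marker syndecan-1, which other cells also express. *Xbp1* was counted in 766 of 1898 Control and 579 of 1431 Loaded spots. It shared spots with *Igkc* at 0.750 and 0.976 times the product of their shares, so its counts are not specific to spots with immunoglobulin. *Tnfrsf17*, the receptor BCMA, had only 2 UMIs in Control bone and 6 in Loaded bone, and *Derl3*, of the degradation machinery of the endoplasmic reticulum, 3 and 5. Of 7 list genes with at least 10 UMIs in bone, 2 were above a log2 ratio of 1 in Loaded over Control, against 10.6% of all genes, and 1 was below -1, against 9.81%, with a median of 0.65: *Xbp1* was at 0.65 (0.25 to 1.05), *Sdc1* at 0.73 (0.27 to 1.20), *Txndc5* at 0.54 (0.13 to 0.95), *Fkbp11*, a chaperone of secretory cells, at 1.43 (0.05 to 2.96), *Prdm1*, the master regulator Blimp-1, at 1.20 (-0.36 to 2.92) and *Tent5c*, an RNA polymerase that stabilizes immunoglobulin transcripts, at -1.31 (-2.58 to -0.19). Outside bone the median of the list was 0.09, beside 1.60 for the members. There *Derl3* was at 1.48 (0.57 to 2.45), *Txndc5* at 0.21 (0.05 to 0.36), *Tent5c* at -0.38 (-0.68 to -0.09) and *Irf4*, a plasma cell transcription factor, at -1.59 (-4.04 to 0.28), so the list went both ways.

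Of 7 B cell genes of 12 with at least 10 UMIs in bone, 3 were above a log2 ratio of 1, against 10.6% of all genes, and 0 below -1, against 9.81%, with a median of 0.62. Outside bone 1 of 11 was above 1, against 6.32%, and 0 below -1, with a median of 0.70. *Cd37*, a tetraspanin, was at 1.77 (1.14 to 2.44) and *Ms4a1*, which encodes CD20, at 2.23 (0.58 to 4.28), while *Cd79a*, a signaling chain of the B cell receptor, was at 0.43 (-0.22 to 1.08) with 41 and 44 UMIs. *Ighd*, the heavy chain of IgD carried by naive B cells, was at 1.47 (0.33 to 2.71) in bone and 1.08 (0.68 to 1.48) outside. Of the pre-B list, only *Ebf1*, a B lineage transcription factor, had enough UMIs in bone, at -0.59 (-1.48 to 0.25). T cell genes were scarce, with 28 UMIs in Control bone and 43 in Loaded bone over 8 genes, and the 2 with at least 10 UMIs, *Cd4*, a coreceptor, and *Lck*, a signaling kinase, were at 1.81 (0.26 to 3.64) and 2.33 (0.44 to 4.79).

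Receptors that bind antibody and signals that keep plasma cells alive were read alongside. In bone, *Fcgrt*, the neonatal Fc receptor that recycles IgG, was at -1.02 (-1.65 to -0.42) and *Fcer1g*, the shared signaling chain of Fc receptors, at 0.75 (0.26 to 1.26). *Fcgr1* was at 1.11 (-0.36 to 2.69) there, *Fcgr3* at 0.62 (-0.05 to 1.31) and *Fcgr2b*, the inhibitory IgG receptor, at -0.53 (-1.51 to 0.40). Of these 5 receptor genes in bone, 1 was above 1, against 10.6% of all genes, and 1 below -1, against 9.81%. Outside bone *Fcer1g* was at 1.32 (1.14 to 1.50), *Fcgr3* at 1.14 (0.89 to 1.40) and *Fcgr2b* at 1.04 (0.72 to 1.36). There 3 of 6 receptor genes were above 1, against 6.32%, and 0 below -1, against 5.16%. *Cxcl12*, the chemokine that retains plasma cells in marrow, was at -0.33 (-0.80 to 0.13) in bone and 0.16 (-0.00 to 0.33) outside, and *Tnfsf13*, the survival factor APRIL, at -1.26 (-3.07 to 0.28) and 0.28 (-0.25 to 0.80). In the niche list, 0 of 5 testable genes in bone were above a log2 ratio of 1, against 10.6% of all genes. In bone 1 of them was below -1, against 9.81%. Outside, 0 of 8 were above 1, against 6.32%, and 0 below -1, against 5.16%.

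The genes most like the summed members across spots included granulocyte and red cell genes. Ranked by the lower of the correlations in the 2 sections (1898 and 1431 spots, 9440 genes), the first 10 were *Camp*, a granule protein of neutrophil precursors (r = 0.43 in Control and 0.56 in Loaded), the histone genes *Hist1h1d*, *Hist4h4*, *Hist1h1a* and *Hist2h2bb*, the globins *Hbb-bs*, *Hba-a2* and *Hbb-bt*, and the cytoskeletal genes *Tmsb4x* and *Actb*. The lower r of these ranged from 0.38 to 0.43, beside a median of -0.04 over all genes. By list, the summed members followed granulocyte genes (0.44 and 0.60) and erythroid genes (0.41 and 0.60) more closely than B cell genes (0.35 and 0.48) or the other plasma cell genes (0.09 and 0.15), and ran opposite to muscle (-0.27 and -0.50). The points share a library and its depth, and the abundant lists are measured with less counting error than the sparse ones.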

How the data were processed

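Spatial expression was measured in 1 Control and 1 Loaded femur section with the Visium assay for FFPE tissue and its mouse probe set. The authors counted UMIs per gene and spot with Space Ranger 2.0.0 (mm10 per the labels), and the deposited values are these raw counts. Here spots under 500 UMIs or 250 genes were removed (64 Control, 5 Loaded), as in the study, and bone spots were taken from its published barcodes. UMIs were summed over regions and divided by summed scran size factors (R 4.3.3, scran 1.30.0). Intervals at the 95% level are exact Poisson, exact binomial (Clopper-Pearson) or conditional binomial intervals (Python 3.11.15, scipy 1.17.1). Ratios needed at least 10 UMIs over both regions. Moran's I and correlations used log2(1 + UMIs per 10000). Alternatives included library totals, TMM (edgeR 4.0.16), left-out blocks and spots, and other depths. The ratio and Moran computations were tested on simulated data. The members, lists and tests were chosen with earlier results of these data known. Named genes are the 9 members, the list genes with most UMIs or a log2 ratio past 1, and the 10 genes most like the members, and the B cell, *Tnfrsf17*, *Derl3*, *Tnfsf13* and light chain genes and the single spots were picked after their values were seen. A gene of the B cell list is not reported here.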

Additional observations from a re-analysis of the deposited data

Results flagged for a closer look

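*Ighg3* lay on opposite sides of 0 when bone was set against the other spots of the same section: the log2 ratio was -3.57 (-8.89 to -1.07) in Control, with 1 UMI in bone and 127 outside, and 0.61 (0.17 to 1.03) in Loaded, with 54 and 338. In spots with a muscle share below 5% both sections lay below 0, with *Ighg3* at 0 UMIs in Control bone and 43 outside, and at -0.79 (-1.75 to 0.05) in Loaded. Per 100000 UMIs *Ighg3* was at 13.2 in Loaded bone, 26.4 in the Loaded cavity, 14.8 in the rest and 1.85 in muscle. The difference between the sections was not tested, because each group is 1 section. The members were chosen with the *Ighg3* values of the bone regions known, so this contrast is a description.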

How the results depend on the processing

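No paired analysis was possible because each group is 1 section. The cause was not tested for any value here. The log2 ratio of the summed members between the bone regions (0.28) was 0.85 with equal weight for every spot, 1.03 without the richest spot of each region and -2.29 in spots with a muscle share below 5%. Left-out Loaded blocks gave 0.80 (side 1 end 1) and -0.18 (side 2 end 2), and left-out Control blocks -0.0235 and 1.21. In the other spots the ratio (1.08) was 1.45 by library totals, 1.45 also with no spot filter, 0.90 with equal weight and 1.54 at low muscle share. Bone over other spots in Control (0.98) was 1.49 by library totals, 1.49 with no filter, 0.12 with equal weight, 0.0757 without the richest spots and 1.61 at low muscle share, and without blocks 1.22, 1.18 and 0.12. In Loaded (0.23) it was 0.43 by library totals, 0.43 with no filter, 0.0724 by TMM, 0.0755 with equal weight, 0.0556 without the richest spots and -2.10 at low muscle share, and without blocks 0.74 and -0.23. *Igha* between the bone regions was 0.24 without the Control block side 2 end 2, and *Igkc* was -2.32 at low muscle share and -0.0672 and -0.11 without Loaded block side 2 end 2 and Control block side 1 end 1. In Loaded bone over other spots, *Ighg3* was -0.79 at low muscle share, and *Igha* was -0.11 without the richest spots, -4.22 at low muscle share and -0.76 without block side 2 end 2. Low muscle share left 16 Control and 25 Loaded bone spots. In Control bone 218 of the 224 member UMIs of these spots, and 101 of 102 of *Igkc*, lay in the single richest spot. With the richest spot of each region also left out (added after the data were seen), the summed members were at 2.59 between the bone regions, 1.51 in the other spots, -3.42 for bone over other spots in Control and -2.21 in Loaded. *Igha* was then at -2.47 and *Igkc* at -4.19 in Control, and in Loaded *Igha* was at -3.96 and *Ighg3* at -0.79. Moran's I of the summed members was 0.0933 from raw UMIs and 0.146 from a UMI or not in Control, and 0.212 from a UMI or not in Loaded. Spots with a member UMI were 18.3% at 500 UMIs and 65.6% unthinned in Control bone, 20.5% and 57.7% in the other Control spots, 38.4% and 79.5% in Loaded bone and 31.8% and 69.8% in the other Loaded spots. *Ighg3* between the bone regions stayed positive in all alternatives run, which could hardly turn 54 Loaded UMIs against 1 in Control. This adds no support, as the set was proposed because of that gene. scran without clusters was added after the data were seen. No filter changes nothing in bone, where no spot had been removed, and was run with library totals elsewhere.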
